A study of Homo sapiens with 14 samples.

Results

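Collagens, laminins and the proteins that link them make up most of the extracellular matrix that an epithelial cell rests on. The 56 genes described here were taken by symbol from the array's probe annotation: 43 collagen chains, 10 laminin chains, and the linker or proteoglycan genes NID1, HSPG2 and AGRN, out of 18398 genes measured. By class, 19 belong to the basement membrane (the 6 collagen IV chains, the 10 laminin chains, NID1, HSPG2 and AGRN), 11 are fibrillar collagen chains and 26 are other collagen chains. Where a gene had more than 1 row on the array (COL11A2 alone among the 56), the row with the highest mean was used. Genes of this family whose row the annotation does not pair with 1 gene were not analysed here.

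The cells were OVCAR-3, an established human ovarian carcinoma line, and 5 sublines made resistant to PHA-533533, an inhibitor of the cell cycle kinase CDK2. Selected arrays (n = 5) held the sublines R1, R3, R5, R6 and R7 at passage 5 in 4 µM of the inhibitor. Stable arrays (n = 5) held the same sublines at passage 10 or later in 0 µM, and parental arrays (n = 4) held untreated OVCAR-3. All cells grew in the same medium with fetal calf serum, and inhibitor and passage changed together between selected and stable arrays. Each subline has 1 array per state. Whether the parental replicates came from separate cultures is not stated in the labels, so a p-value set against their spread may reflect technical spread only.

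A basement membrane is a thin sheet in which a collagen IV network and a laminin network are joined by nidogen and by the heparan sulfate proteoglycans perlecan and agrin. Each laminin is made of an alpha, a beta and a gamma chain, and it is the alpha chain that binds most cell receptors. Fibrillar collagens form the banded fibres of connective tissue and are known as products of fibroblasts, bone and cartilage cells. The remaining chains are of several kinds, among them beaded filaments, short-chain networks, fibril-associated molecules and membrane-spanning proteins.

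Averaged over the 14 arrays, single genes of a list of 14 ovarian and epithelial markers, among them PAX8, EPCAM and KRT8, had log2 signals of 9.32 (WT1) to 13.10 (KRT8), and those of 12 fibroblast markers 4.92 (LUM) to 8.30 (FBLN1). Since probes differ between genes, these ranges describe the lists and do not test the label. The mean of the 14 ovarian and epithelial markers was 10.88 to 11.30 in selected, 10.71 to 11.32 in stable and 10.94 to 11.15 in parental arrays. For selected against parental cells 11 of the 14 differed above 0 and 3 below, among them MUC16 (-0.88) and MSLN (-0.56). None passed, though 9 had an unadjusted limma p under 0.05 (64.3%, against 20.3% of all genes). None passed in the other comparisons of these groups, except CDH1 with subline as a block (0.59, adjusted p = 0.0384). In R3 against parental cells 1 of the 14 was called lower (0.0761% of all genes). The mean of the 12 fibroblast markers was 6.41 to 6.59 in selected, 6.33 to 6.52 in stable and 6.32 to 6.56 in parental arrays, and none of the 12 passed the test in any comparison of these groups. As a measure of background, the average of 340 olfactory receptor genes, a family with little activity outside the nose, was 6.06 to 6.60 in selected, 6.18 to 6.70 in stable and 6.16 to 6.71 in parental arrays. Among the sublines it was lowest in R1, at 6.06 in the selected and 6.18 in the stable array. Parental replicates 2 and 4 lay both above or both below replicates 1 and 3 for 36.8% of all genes and for 14 of the 56 matrix genes. Precision is limited by how few arrays each group has. Rows of different genes use different probes, so levels are compared within a gene and not between genes. In RNA from whole cultures, fewer cells that make a transcript and less of it per cell cannot be told apart.

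Most collagen chains moved across the arrays with the background measure, and several laminin chains did not. Pearson's r between a gene's signal and the olfactory receptor mean over the 14 arrays was above 0.5 for 37 of the 56 genes (66.1%), against 29.7% of all genes tested. It was above 0.5 for 8 of 11 fibrillar chains, 21 of 26 other chains and 8 of 19 basement membrane genes. Medians were 0.72 for fibrillar chains, 0.74 for other chains, 0.15 for basement membrane genes and -0.096 for all genes. COL1A2, a chain of the main collagen of bone, skin and tendon, had r = 0.89, and COL3A1, its partner in soft tissue, had r = 0.87. The laminin chains parted among themselves: LAMB4, LAMA4, LAMC3 and LAMA2 had r between 0.54 and 0.94, whereas LAMB3, LAMA5, LAMB2, LAMC1, LAMB1 and LAMA1 had r between -0.59 and -0.051. COL12A1, a collagen that coats the surface of fibrils, had the lowest value of the 56, at r = -0.87. These r describe arrays of which pairs share a subline, and no test was made on them.

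**Figure D1:**
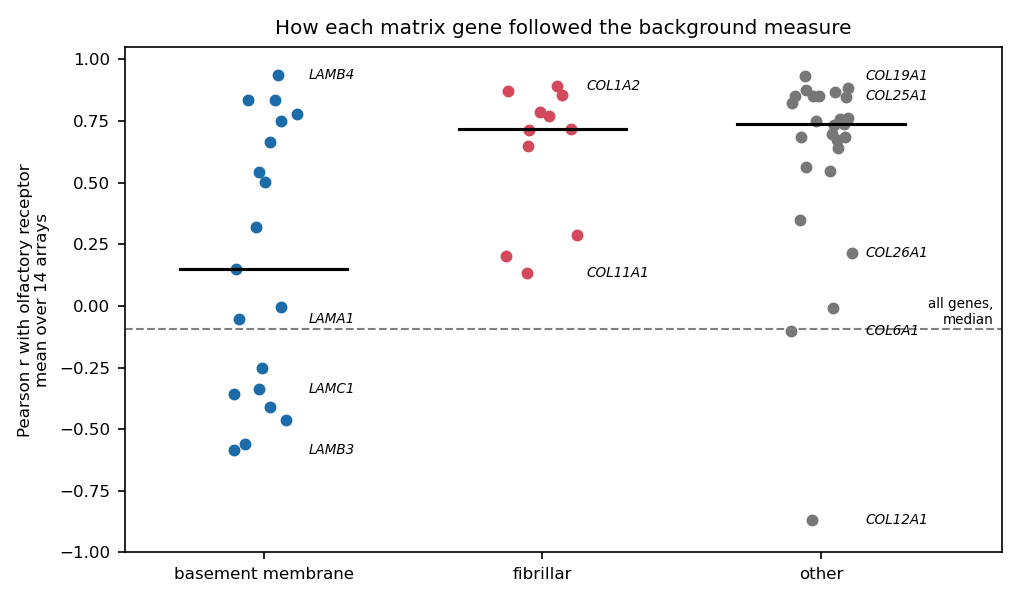
Pearson's r between each of the 56 genes and the mean of 340 olfactory receptor genes over 14 arrays (y axis, no unit), by class (x axis). Points are genes, black bars are class medians (0.15, 0.72 and 0.74) and the dashed line is the median of all genes (-0.096). Fibrillar and other collagen chains cluster high, while laminin chains such as LAMB3 and LAMC1 lie below 0.

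Set against parental cells, the selected sublines show which matrix transcripts differed in resistant cells growing in the inhibitor. LAMA1, the alpha chain of the laminin of early embryonic basement membranes, rose by 0.69 on the log2 scale, and COL26A1, a collagen first described from mouse testis and ovary, fell by 0.61. These were 2 of 56 genes, 1 higher and 1 lower. Among all 18398 genes 6.92% were called, 5.03% higher and 1.89% lower, so the share of matrix genes called, 3.57%, did not stand above the background. The test was limma with Benjamini-Hochberg adjustment over all genes at 0.05.

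LAMA1 had log2 signals of 9.51, 9.16, 9.43, 9.81 and 9.73 in the selected arrays of R1, R3, R5, R6 and R7, against 8.86, 8.90, 8.84 and 8.74 in parental arrays. Every selected array lay above every parental array. Selected cells averaged 9.53 ± 0.26 (SD, n = 5), and parental cells 8.84 ± 0.068 (SD, n = 4), a difference of 0.69 (SE 0.12, limma adjusted p = 0.00689). With all 14 arrays in 1 fit the same difference had an adjusted p of 0.164; that fit also draws on the stable arrays, where LAMA1 had an SD of 0.71.

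COL26A1 had log2 signals of 9.76, 9.74, 9.90, 9.62 and 9.61 in the selected arrays of R1, R3, R5, R6 and R7, against 10.39, 10.33, 10.27 and 10.35 in parental arrays. The groups did not overlap, and the lowest parental array lay well above the highest selected one. Selected cells averaged 9.73 ± 0.12 (SD, n = 5), against 10.34 ± 0.050 (SD, n = 4) for parental cells, a difference of -0.61 (SE 0.077, limma adjusted p = 0.00148). The call stood under all 18 alternative settings, with adjusted p between 0.000605 and 0.00956. Of these settings, leaving out R7 and leaving out the selected array of R7 are the same fit here. The r of COL26A1 with the background measure was 0.22.

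The 250 bases before the start of COL26A1 are shown because this gene alone among the 56 was called in both comparisons of the selected state. They lie on the plus strand at chr7:101362625-101362874 (GRCh38.p14, from the RefSeq promoter table, which held 41 of the 56 genes), and capitals mark CG dinucleotides.
COL26A1: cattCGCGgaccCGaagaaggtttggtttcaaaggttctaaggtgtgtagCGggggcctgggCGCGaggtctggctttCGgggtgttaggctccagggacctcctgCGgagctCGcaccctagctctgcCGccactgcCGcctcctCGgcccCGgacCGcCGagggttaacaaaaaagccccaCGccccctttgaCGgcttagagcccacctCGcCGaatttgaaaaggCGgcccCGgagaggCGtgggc
This stretch holds 22 CG dinucleotides, against a median of 11 in the same window of 35116 promoters. Searched on both strands, it holds no GGGCGG (a GC box, in 42.6% of those promoters), no CCAAT (in 32.0%) and no TATAAA (in 10.7%).

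**Figure D2:**
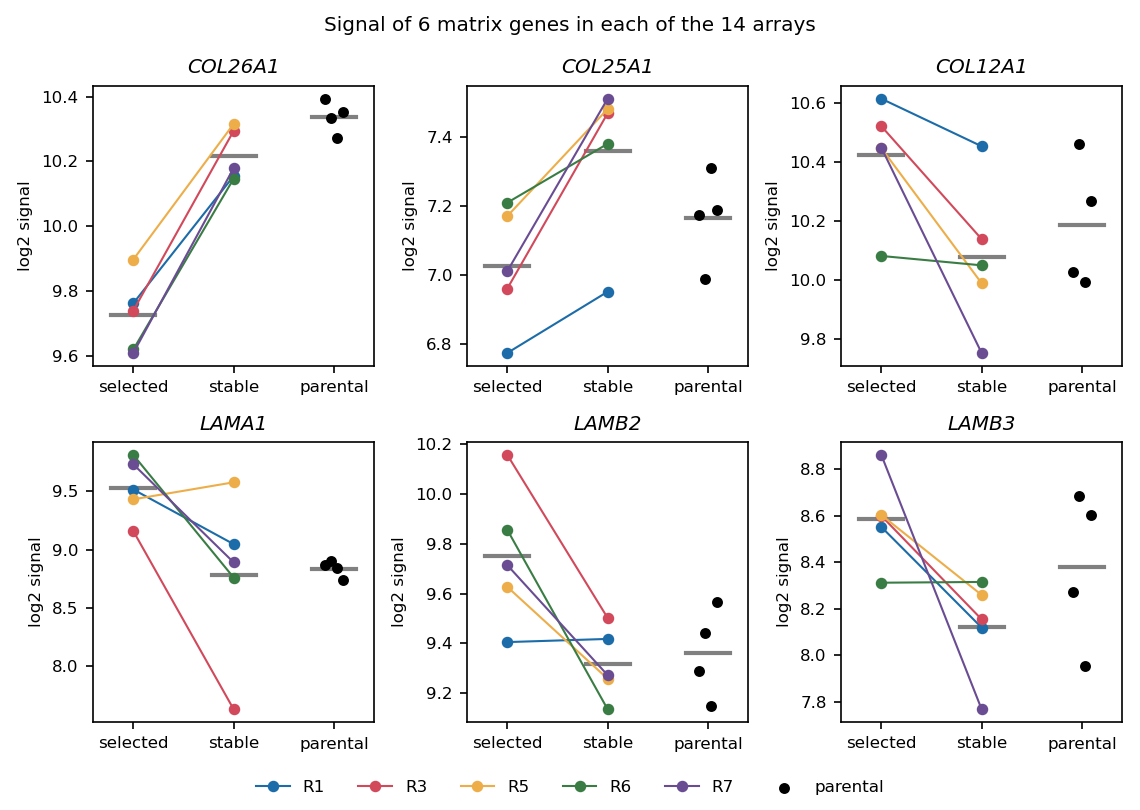
Log2 signal (y axis, a separate scale in each panel) of COL26A1, COL25A1, COL12A1, LAMA1, LAMB2 and LAMB3 in selected, stable and parental arrays (x axis). Coloured lines join the 2 arrays of a subline, black points are parental replicates and grey bars are group means. All 5 selected arrays of COL26A1 lie below all other arrays, and the stable array of R3 stands far below the rest for LAMA1.

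Of the other basement membrane genes none passed for selected against parental cells. The beta chain LAMB2 differed by 0.39 (SE 0.14, adjusted p = 0.122), with signals of 9.41, 10.16, 9.63, 9.86 and 9.71 in the selected arrays of R1, R3, R5, R6 and R7, against 9.29, 9.44, 9.15 and 9.56 in parental arrays. The R1 array of LAMB2 lay inside the parental range and the other selected arrays above it, and without the selected array of R1 the difference was 0.48 and passed (adjusted p = 0.0477). LAMC1, the gamma chain of most laminins, had 10.94, 11.10, 10.97, 10.89 and 11.10 in the selected arrays, against 10.85, 10.93, 10.60 and 10.73 in parental arrays, a difference of 0.22 (SE 0.085, adjusted p = 0.158). The groups of LAMC1 overlap at parental replicate 2 alone, which lies above the selected array of R6. LAMB1, its usual beta partner, averaged 10.69 ± 0.22 (n = 5) in selected against 10.71 ± 0.13 (n = 4) in parental cells, both with SD. HSPG2, the core protein of perlecan, differed by -0.33 (SE 0.11, adjusted p = 0.114) and had 9.10 and 9.06 in parental replicates 1 and 3 but 9.52 and 9.47 in replicates 2 and 4. Selected arrays of HSPG2 had 9.02, 9.16, 8.93, 8.83 and 8.88 in R1, R3, R5, R6 and R7. That of R3 lay above the lower parental pair, and the others lay below every parental array. HSPG2 passed with quantile normalization (-0.39, adjusted p = 0.0253) and with the background measure as covariate (-0.37, adjusted p = 0.0183). AGRN, LAMA5 and LAMB3 parted the parental arrays in the same way, with 10.91 and 10.90, 10.72 and 10.86, and 8.69 and 8.60 in replicates 2 and 4, against 10.39 and 10.26, 10.28 and 10.28, and 8.27 and 7.95 in replicates 1 and 3. LAMB2, COL4A2, COL12A1 and COL18A1 also had replicates 2 and 4 above 1 and 3, which makes 8 of the 56 genes, and 6 others had them below. Such a split was found for 25% of the 56 genes, against 36.8% of all genes. By class it was found for 42.1% of basement membrane genes, 9.09% of fibrillar chains and 19.2% of other chains. Among laminin chains the share was 50%. The split is thus common outside the 56 genes too. Where it occurs, any difference from parental cells is measured against a split control group.

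The collagen IV chains differed little in mean. Their 6 differences for selected against parental cells ran from -0.12 to 0.0033, with adjusted p of 0.424 or more. COL4A1 and COL4A2, the chains that form the common collagen IV molecule, differed by -0.11 each (8.02 ± 0.065 in selected and 8.13 ± 0.075 in parental cells for COL4A1, 9.02 ± 0.061 and 9.13 ± 0.11 for COL4A2; SD, n = 5 and 4), with 95% intervals of -0.26 to 0.037 and -0.27 to 0.046. The 6 chains are encoded as 3 head-to-head pairs, and the start sites of COL4A1 and COL4A2 in the RefSeq promoter set lie 126 bases apart, with 418 bases between those of COL4A4 and COL4A3, and 379 between the closest ones of COL4A6 and COL4A5. Over the 14 arrays r between the chains of a pair was 0.67 for COL4A1 and COL4A2, 0.95 for COL4A3 and COL4A4, and 0.42 for COL4A5 and COL4A6. The high r of COL4A3 and COL4A4 came with r of 0.78 and 0.83 between each of them and the background measure, while COL4A1 and COL4A2 had r of -0.0055 and 0.32 with it.
The stretch between the start sites of COL4A1 (to its left, minus strand) and COL4A2 (to its right, plus strand) is shown as the DNA this pair shares. It is chr13:110307158-110307283 (GRCh38.p14, RefSeq), read on the plus strand, and capitals mark a CCAAT box and a GC box (GGGCGG).
COL4A1 to COL4A2: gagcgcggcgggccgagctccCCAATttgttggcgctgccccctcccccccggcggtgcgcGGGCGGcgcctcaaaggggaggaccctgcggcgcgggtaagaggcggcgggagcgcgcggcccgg
In the 126 bases before a start, searched on both strands, 21.1% of promoters hold CCAAT and 34.6% hold GGGCGG. Matches of these letters are a description and not evidence of binding.

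Among fibrillar chains none was called, with 9 of 11 differences below 0 and a median of -0.072, against -0.013 for all genes. COL27A1, a fibrillar collagen of cartilage, came closest at -0.30 (SE 0.086, adjusted p = 0.0599). Its signals were 7.99, 8.14, 8.23, 8.17 and 7.91 in the selected arrays of R1, R3, R5, R6 and R7, against 8.32, 8.27, 8.50 and 8.45 in parental arrays. The groups of COL27A1 did not overlap. Among all genes the selected arrays lay wholly below the parental ones in 2.96% and wholly above in 6.81%; in the matrix set COL27A1 and COL26A1 lay below and LAMA1 above. COL27A1 passed with quantile normalization (-0.33, adjusted p = 0.0418), with the background measure as covariate (-0.27, adjusted p = 0.0267) and without the selected array of R5 (-0.34, adjusted p = 0.0495). COL1A1 differed by -0.13 (SE 0.073, adjusted p = 0.363) and COL1A2 by -0.014 (SE 0.10, adjusted p = 0.966).

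Of the 26 other chains 23 had differences below 0 for selected against parental cells, with a median of -0.10 (-0.013 for all genes). COL26A1 was the one called. COL18A1, whose end piece is released as endostatin, differed by -0.23 (SE 0.090, adjusted p = 0.175). COL8A1, a short-chain collagen of vessel walls, differed by -0.26 (SE 0.11, adjusted p = 0.186), and without parental replicate 2 it passed at -0.37 (adjusted p = 0.0303). COL12A1 differed by 0.23 (SE 0.12, adjusted p = 0.334).

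**Figure D3:**
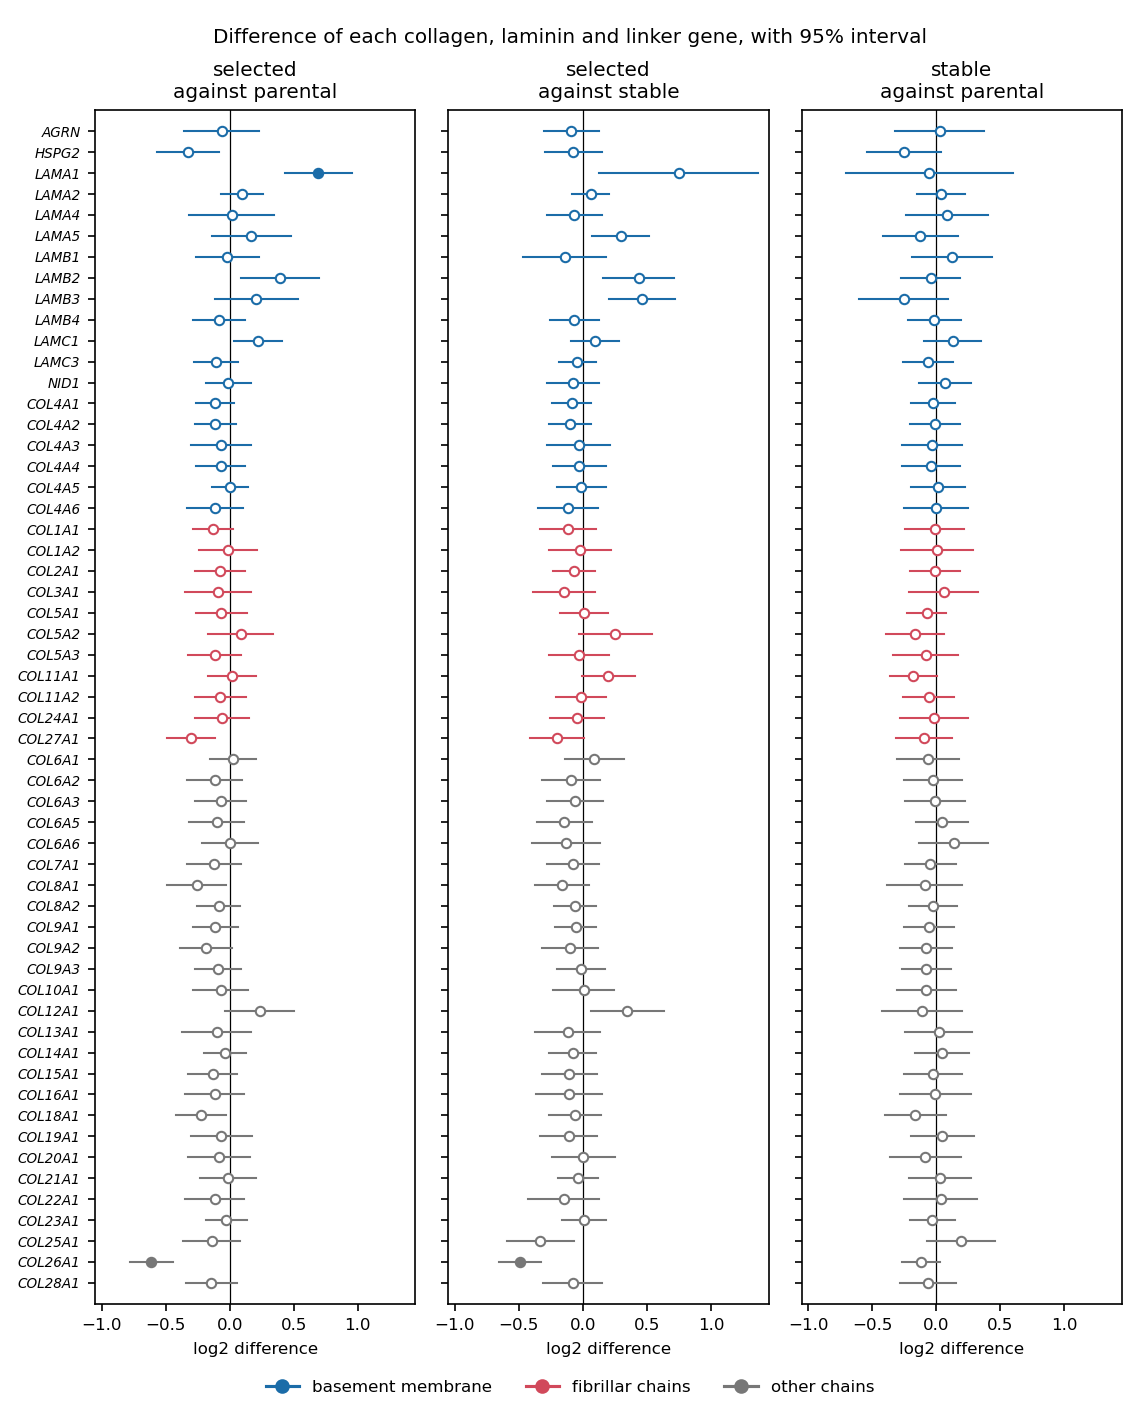
Log2 difference (x axis) of each of the 56 genes (y axis) for selected against parental, selected against stable and stable against parental cells, with 95% intervals from limma. Filled points passed at an adjusted p of 0.05: LAMA1 and COL26A1 in the first panel, COL26A1 in the second and none in the third.

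The comparison of selected with stable cells sets the same 5 sublines in the inhibitor against those grown without it at later passage. COL26A1 was again lower in selected cells, 1 of 56 genes lower and 0 higher, against 0.614% lower and 1.54% higher among all genes (2.16% called in all). Its stable arrays lay at 10.16, 10.29, 10.32, 10.15 and 10.18 in R1, R3, R5, R6 and R7, each above the selected array of every subline. Selected arrays averaged 9.73 ± 0.12 and stable arrays 10.22 ± 0.080 (SD, n = 5 each), a difference of -0.49 (SE 0.074, limma adjusted p = 0.0116). The selected array was lower in 5 of 5 sublines. Wholly lower selected arrays were found for 1.33% of all genes and for COL26A1 alone among the 56, and wholly higher ones for 2.83% of all genes and none of the 56. Without both arrays of R7, a setting in which no gene of the 18398 passed, the difference was -0.47 (adjusted p = 0.0913). With subline as a block and the olfactory receptor mean together it was -0.45 (adjusted p = 0.529).

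With subline as a block COL25A1 also passed, at -0.33 (SE 0.080, adjusted p = 0.0489), so that 2 of 56 genes were lower and 0 higher, against 1.31% lower and 3.61% higher (4.92% in all). COL25A1 encodes a membrane-spanning collagen whose shed ectodomain is known from amyloid plaques. Its signals were 6.77, 6.96, 7.17, 7.21 and 7.01 in the selected arrays of R1, R3, R5, R6 and R7, against 6.95, 7.47, 7.48, 7.38 and 7.51 in the stable arrays. The selected array was lower in all 5 sublines, although the groups overlap because both arrays of R1 are low. Parental arrays of COL25A1 lay between, at 6.99 to 7.31. Without the block the adjusted p was 0.186. The gene had r = 0.85 with the background measure, which was lower in the selected array of each subline, and with that measure as a covariate the difference was -0.20 (adjusted p = 0.184).

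Several laminin chains had differences above 0 in selected against stable cells, and none passed without array weights. With array weights LAMB2 (0.52, adjusted p = 0.0192) and LAMB3 (0.47, adjusted p = 0.0406) passed. LAMB3, a beta chain of the laminin that anchors hemidesmosomes, had 8.55, 8.60, 8.60, 8.31 and 8.86 in the selected arrays of R1, R3, R5, R6 and R7, against 8.12, 8.15, 8.26, 8.32 and 7.77 in the stable ones. In R6 the arrays of LAMB3 were level, and in the other sublines the selected one was higher. The difference of LAMB3 was 0.46 (SE 0.12, adjusted p = 0.0701, and 0.0878 with the block). LAMB2 differed by 0.44 (SE 0.13, adjusted p = 0.109, and 0.0531 with the block), being higher in 4 of 5 sublines. LAMA5, the most widespread alpha chain of adult epithelia, differed by 0.29 (SE 0.10, adjusted p = 0.170) and was higher in 5 of 5 sublines. LAMA1 differed by 0.75 (SE 0.28, adjusted p = 0.220, and 0.0667 with the block) and was higher in 4 of 5. Of the 10 laminin chains 6 had differences above 0, with a median of 0.076, against 0.0029 for all genes.

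LAMB3, LAMA5 and LAMB2 had negative r with the background measure (-0.59, -0.56 and -0.36). With subline as a block and that measure as a covariate the differences were -0.0021 for LAMB3, 0.36 for LAMA5 and 0.48 for LAMB2, with adjusted p of 0.998, 0.664 and 0.669. In that fit the difference of LAMB3 was near 0. No gene of the 18398 passed there.

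Collagen chains mostly lay slightly lower in selected than in stable cells, 35 of 43 with a median of -0.068. Among all genes 9034 of 18398 lay below 0, with a median of 0.0029. Of the 43 chains 32 had r above 0.5 with the background measure, which was lower in the selected array of each subline. That measure averaged 6.35 in selected and 6.50 in stable arrays. Whether the shift of the chains follows it was not tested. All 6 collagen IV chains were below 0, between -0.12 and -0.012, and none of them passed. COL12A1 went the other way at 0.35 (SE 0.13, adjusted p = 0.215). It had 10.61, 10.52, 10.45, 10.08 and 10.45 in the selected arrays of R1, R3, R5, R6 and R7, against 10.45, 10.14, 9.99, 10.05 and 9.75 in the stable ones. The selected array was higher in 5 of 5 sublines, though by little in R6. With array weights COL12A1 passed at 0.44 (adjusted p = 0.0333). With subline as a block and the olfactory receptor mean its difference was 0.084 (adjusted p = 0.896). The fibrillar chain COL5A2, a partner in collagen V, differed by 0.25 (SE 0.13, adjusted p = 0.408) and was likewise higher in 5 of 5.

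Stable cells were compared with parental cells to see what remained after growth without inhibitor. None of the 56 genes passed by limma, and none reached an unadjusted p under 0.05. Among all genes 0.00544% were called and 6.09% had an unadjusted p under 0.05. COL26A1 averaged 10.22 ± 0.080 (SD, n = 5) in stable and 10.34 ± 0.050 (SD, n = 4) in parental cells, a difference of -0.12 with a 95% interval of -0.27 to 0.031. LAMA1 averaged 8.78 ± 0.71 (SD, n = 5) in stable and 8.84 ± 0.068 (SD, n = 4) in parental cells, a difference of -0.055 with an interval of -0.71 to 0.60. Its stable arrays had 9.05, 7.63, 9.58, 8.76 and 8.89 (sublines in the order above). Against a parental range of 8.74 to 8.90, R6 and R7 lay inside it, R1 and R5 above it and R3 far below it. Without the stable array of R3 the difference of LAMA1 was 0.23, with its sign turned (adjusted p = 0.962), and without that of R5 it was -0.25 (adjusted p = 0.999).

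The smallest p of the 56 genes for stable against parental cells was that of COL11A1, a fibrillar collagen of cartilage, at -0.18 (SE 0.083, adjusted p = 0.830). Its stable arrays had 7.58, 7.35, 7.596, 7.72 and 7.69 (R1, R3, R5, R6 and R7), against 7.79, 7.73, 7.76 and 7.79 in parental arrays. COL11A1 was the one gene of the 56 whose stable arrays lay wholly below the parental ones, as did 1.42% of all genes, and none lay wholly above, as did 0.826%. HSPG2 differed by -0.25 (SE 0.13, adjusted p = 0.869) and LAMB3 by -0.25 (SE 0.16, adjusted p = 0.958). Both of these parted the parental arrays. Selected against parental and stable against parental share the 4 parental arrays.

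**Figure D4:**
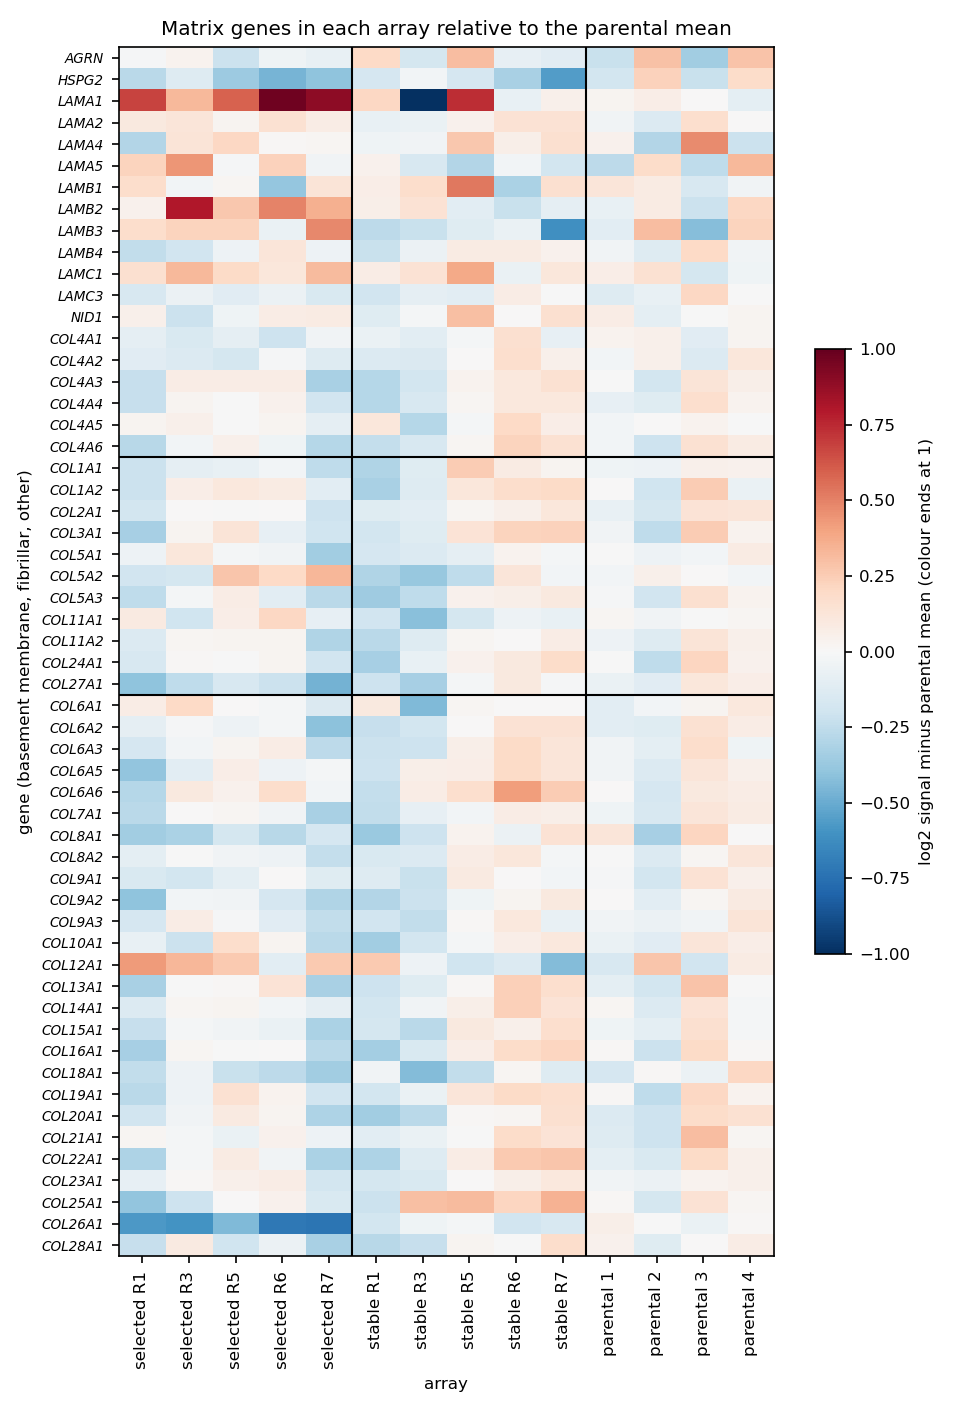
Log2 signal of each gene (y axis, grouped as basement membrane, fibrillar and other) in each array (x axis) minus the parental mean of that gene. Colour ends at 1 and -1. COL26A1 is low across the selected arrays, LAMA1 is high there and low in the stable array of R3, and most collagen chains shift together within an array.

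Per subline, with its selected and stable arrays as 1 group against parental cells, none of the 56 genes passed in any of the 5 sublines. This fit has no term for growth condition, so a difference between the selected and stable arrays of a subline counts as spread. Genes that differ between these states are thus less likely to pass. Among all genes 0% were called in R1, R6 and R7. In R3 0.196% were called (0.12% higher and 0.0761% lower) and in R5 0.0598% (0.0217% higher and 0.038% lower). In R1 46 of 56 lay below 0 with a median of -0.20, against -0.021 for all genes. In R3 and R7 47 and 41 of the 56 lay below 0, with medians of -0.073 and -0.064 (-0.0099 and -0.0071 for all genes). In R5 and R6 38 and 39 of the 56 lay above 0, with medians of 0.026 and 0.043 (0.015 and 0.011 for all genes). The olfactory receptor mean was 6.06 and 6.18 in the selected and stable arrays of R1, against 6.50 and 6.60 in those of R5 and 6.60 and 6.63 in those of R6. In R3 it was 6.26 and 6.39, and in R7 6.32 and 6.70, the latter the highest of the resistant arrays. The differences of R7 pool both arrays, which lay on opposite sides of the parental mean for some genes. COL22A1, for example, was at -0.32 from that mean in the selected and 0.27 in the stable array of R7. Before adjustment, p lay under 0.05 for 11 of the 56 genes in R1 (19.6%, against 18.8% of all genes), for 3 in R6 (5.36%, against 7.36%) and for 1 each (1.79%) in R3, R5 and R7, against 9.31%, 6.26% and 5.25% of all genes. The matrix genes were thus close to or under the share of all genes in every subline. HSPG2 had the smallest p in R6 (-0.39, adjusted p = 0.482) and in R7 (-0.48, adjusted p = 0.628), and LAMC1 in R5 (0.28, adjusted p = 0.694).

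Between the 5 sublines, net of growth condition, none of the 56 genes passed the limma F test, and 0.12% of all genes were called. An unadjusted p under 0.05 was found for 6 of the 56 (10.7%), against 15.8% of all genes. The smallest p was that of COL6A6, a chain of the beaded filament collagen VI (F = 6.15, adjusted p = 0.201). COL6A6 had 5.86 and 5.91 in the selected and stable arrays of R1, the lowest of the sublines, and 6.32 and 6.56 in those of R6, the highest. It passed with trended and robust variance (adjusted p = 0.0469) and with array weights (adjusted p = 0.0372), and its r with the background measure was 0.85. LAMB1, the beta chain of most laminins, was next (F = 5.17, adjusted p = 0.233). Its selected and stable arrays had 10.32 and 10.39 in R6, below all parental arrays (10.54 to 10.83), and 10.73 and 11.24 in R5. The range of subline means was 0.63 for LAMB1 and 0.56 for COL6A6. It was 1.11 for LAMA1 (F = 3.86, adjusted p = 0.302), with R3 lowest and R5 highest. In COL5A2 (F = 5.04, adjusted p = 0.240) the selected arrays of R5, R6 and R7 had 7.70, 7.62 and 7.75, above the parental range of 7.40 to 7.47, while those of R1 and R3 had 7.23 and 7.25, below it. The stable arrays grouped otherwise. Those of R1, R3 and R5 had 7.13, 7.05 and 7.18, below that range. That of R7 had 7.40, at its lower end, and that of R6 7.55, above it.

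Collagen chains are hydroxylated, folded, exported, cleaved and crosslinked with the help of enzymes and other proteins. Some of the 37 genes measured from a list of these were called. For selected against parental cells 4 of 37 were higher and 1 lower, with a median of 0.070, where 5.03% of all genes were higher and 1.89% lower. PLOD2, which hydroxylates collagen lysines, rose by 0.75 (SE 0.099, adjusted p = 0.00192). P4HB, a disulfide isomerase and subunit of the prolyl hydroxylase that stabilises the triple helix, rose by 0.42 (SE 0.071, adjusted p = 0.00670). P3H1, another prolyl hydroxylase, rose by 0.38 and FKBP14, a prolyl isomerase of the endoplasmic reticulum, by 0.73 (adjusted p = 0.0341 and 0.0338), whereas PHYKPL, an enzyme that breaks down phosphorylated hydroxylysine, fell by 0.34 (adjusted p = 0.0159). For selected against stable cells P4HB rose by 0.39, P3H1 by 0.37 and P4HA2, the catalytic subunit that works with P4HB, by 0.34 (adjusted p = 0.0260, 0.0354 and 0.0380), 3 of 37 higher and 0 lower, where 1.54% of all genes were higher and 0.614% lower. With subline as a block 5 of 37 were higher and 0 lower (3.61% and 1.31% of all genes), now including PLOD2 at 0.61 and the crosslinking enzyme LOX at 0.95 (adjusted p = 0.0259 and 0.0294). None of the 37 passed for stable against parental cells, where 0.00544% of all genes were called. Whether these counts differ from those of the chains was not tested.

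Among 17 receptors of collagen and laminin 2 rose in selected against parental cells and 0 fell, beside 5.03% and 1.89% of all genes. They were ITGA2, the alpha subunit of a collagen-binding integrin, at 0.99 (SE 0.10, adjusted p = 0.000823), and ITGA6, that of the laminin-binding integrins, at 0.50 (SE 0.096, adjusted p = 0.0114). None of the 17 passed for selected against stable cells (2.16% of all genes) or stable against parental cells (0.00544% of all genes). In stable against parental cells ITGA2 still differed by 0.67 and ITGA6 by 0.43 (limma adjusted p = 0.742 and 0.697). Of the 17 receptors 9 differed above 0 there and 8 below. Of 31 matrix partners 3 rose and 2 fell in selected against parental cells, with the same shares of all genes (5.03% and 1.89%). NID2, the second nidogen, rose by 1.64 (SE 0.19, adjusted p = 0.00115); in stable against parental cells it differed by 1.69 (SE 0.28, adjusted p = 0.121). NID1, which does the same linking work, differed by -0.011 in selected against parental cells (SE 0.080, adjusted p = 0.966) with a 95% interval of -0.19 to 0.16. FBLN5, an elastic fibre protein, rose by 0.86 and FRAS1, a protein of epithelial basement membranes in the embryo, by 0.47 (adjusted p = 0.00209 and 0.00919). SPOCK2, a proteoglycan, fell by 1.13 and EFEMP1, a fibulin, by 0.89 (adjusted p = 0.0131 and 0.0389). For selected against stable cells FBLN5 rose by 0.71 (adjusted p = 0.0260), 1 of 31 higher and 0 lower (1.54% and 0.614% of all genes), and with subline as a block SPOCK2 was also called, at -0.59 (adjusted p = 0.0352).

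The genes whose pattern over the 14 arrays was most like that of COL26A1, among all 18398, were RPS2, SPRYD4, MPI, MORN1 and RPS4X, with Pearson's r between 0.92 and 0.95. Those most like LAMB3 were GID8, GSK3B, MAP3K3, AFG3L2 and C10orf12, with r between 0.88 and 0.90. These r were ranked over all genes and carry no test.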

How the data were processed

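RNA of 14 cultures was labelled with biotin for Affymetrix whole-transcript arrays, per the labels' protocols. Values as deposited by the authors were read as log2 signal, a base taken from their range of 4.34 to 14.9 (array medians 7.54 to 7.68). How the authors normalized and summarised probes is not given in the sources used here. Of 32295 rows 19148 name 1 gene, 1376 several and 11771 none; symbols were updated by gene ID (19118 rows matched, GRCh38.p14 table), and the row of highest mean per gene left 18398 genes.

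All comparisons were fitted in limma 3.58.1 (R 4.3.3; lmFit and eBayes), two-sided, unfiltered, adjusted by Benjamini-Hochberg across the 18398 genes at 0.05: selected or stable against parental (9 arrays each), selected against stable (10), each subline against parental (14 arrays, 6 groups), and an F test between sublines with growth condition as covariate. Subline pairs selected and stable arrays by the labels. Paired deviations from the group means correlated at 0.64, 0.050, 0.37, 0.55 and -0.47 in R1, R3, R5, R6 and R7. By these deviations the selected arrays of R1 and R6 were most like their own stable array. The selected array of R3 was most like the stable one of R5, that of R5 like R7 and that of R7 like R1. The comparisons between groups, the F test and the fit of R1 against parental were first run on simulated data without subline pairing. The fits of R3, R5, R6 and R7 and the fit with subline as a block were not. Alternatives were median centring, quantile normalization, removal of genes under the 40th percentile, mean of a gene's rows, array weights, trended and robust variance, 1 fit of all arrays, the olfactory receptor mean as covariate, subline block, and leaving out arrays or R7. The genes and lists were chosen with earlier results of these data known. Any gene of the 56 could be named; from the other lists, called genes and up to 3 per list by smallest p. Markers of endothelial, mesothelial and leukocyte cells had no call in any of the 3 comparisons.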

Additional observations from a re-analysis of the deposited data

Results flagged for a closer look

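In 5 of 168 groups of arrays (56 genes in 3 groups) a single array stood apart by Dixon's test, which chance alone flags in about 1 group in 20. COL25A1 had 6.95 in the stable array of R1, against 7.38 to 7.51 in the other stable arrays. COL6A1, a chain of the beaded filament collagen VI, had 8.27 in the stable array of R3, against 8.71 to 8.81 in the others. COL6A2, its partner chain, had 8.57 in the selected array of R7, against 8.88 to 8.97. COL4A1 had 8.02 in parental replicate 3, against 8.16 to 8.18, and COL9A3, a chain of the cartilage collagen IX, had 8.96 in parental replicate 4, against 8.77 to 8.80.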

How the results depend on the processing

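The count of 2 matrix genes called for selected against parental cells became 4 under quantile normalization or with the background measure as covariate (COL27A1 and HSPG2 added) and 1 with all 14 arrays in 1 fit (LAMA1 lost). Leaving out 1 array at a time gave 2 to 3. The count of 1 for selected against stable cells became 5 with array weights (COL12A1, LAMB2, LAMB3 and COL25A1 added), 2 with subline as a replicate block (COL25A1 added), and 0 without R7 or with the block and the olfactory receptor mean together. Leaving out 1 array gave 1 to 2, the 2 arising without the stable array of R1. With the block but without R7 it stayed 1 (COL26A1, adjusted p = 0.0390). Between sublines 1 gene, COL6A6, was called with array weights or with trended and robust variance, and 0 otherwise. For stable against parental cells and for each subline no alternative called any of the 56. Signs turned for LAMA1 in stable against parental cells with array weights (0.16) and without the stable array of R3 (0.23); leaving out 1 array gave -0.25 to 0.23. The sign also turned for LAMB3 in selected against stable cells with the block and the olfactory receptor mean (-0.0021). The causes were not tested. The filter on dim genes left 34 of the 56 genes to test. The block changed no other call of a matrix gene. With 4 or 5 arrays a group, small differences were not detectable.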
